A study of Mus musculus with 6 samples.

Results

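The genes described here are 10 that estrogen is known to induce in breast and uterus: Greb1, Pgr, Nrip1, Igfbp4, Xbp1, Ccnd1, Myc, Cxcl12, Stc2 and Ctsd. They were looked up by name among 21887 protein-coding mouse genes. Their peaks are all those inside the RefSeq span of the gene, or within 100 kb of it where no other protein-coding gene was nearer. After overlapping or touching peaks of the 6 deposited lists were merged, 30 of 39374 regions in the series belonged to 8 of the 10 genes (61.5% of all 21887 had a region), and none belonged to Igfbp4 or Stc2. These regions held 60 calls, a call being a region in which 1 library had a peak.

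Estrogen receptor alpha is a nuclear receptor that binds estradiol and then attaches to DNA, at its best known sites through a palindrome called the estrogen response element. It often acts from enhancers far from gene starts. Greb1 and Pgr are textbook targets of the receptor, and Pgr is also known for its induction by estrogen in hypothalamic neurons. CUT&RUN maps a protein by directing a nuclease to it in isolated nuclei and sequencing the short fragments released. Here the protein was estrogen receptor alpha, per the library titles. The method measures where fragments pile up and says nothing of transcription, so whether any of these genes was induced was not measured.

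The estradiol group (3 libraries) came from adult C57/BL6 male mice given 5 µg of estradiol benzoate in a subcutaneous injection. The vehicle group (3 libraries) received corn oil. All males had been gonadectomized at 10 to 12 weeks of age, were treated 3 weeks afterwards, and gave nuclei of limbic brain tissue 4 hours after the injection. The labels leave unstated if each library is a separate animal, so p-values measure the spread between libraries, which may be technical. Replicate 3 of both groups has another style of peak name and shorter labels than replicates 1 and 2. Peak lists give no expression values, so the tissue label was not checked against markers.

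The lists held 11082, 14123 and 17558 peaks in estradiol replicates 1, 2 and 3, against 5421, 13717 and 20541 in vehicle replicates 1, 2 and 3. Vehicle replicate 1 was thus the shortest list. The number of fragments at each summit was estimated from the authors' fold enrichment and p-value. Every library had called summits with as few as 4 fragments, and its median was 6, so a missing peak does not show a lack of binding. Peak heights are the authors' own −log10 q-values, used to describe peaks and to order regions. The lists differ in length and their depth is unknown. Heights and fragments of different libraries, where printed side by side, are therefore not a measure of a difference in binding.

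Of the 30 regions, 18 had peaks of estradiol libraries only, 5 of vehicle libraries only and 7 of both groups. An estradiol-only region is one with a peak in 3 of 3 estradiol and 0 of 3 vehicle libraries. There were 4 such regions, 2 at Greb1 and 2 at Pgr, which is 13.3% of the 30, against 0.737% of all 39374 regions and 0.678% of the 34220 within 100 kb of a gene. No region of these genes was vehicle-only, the reverse pattern, which 0.112% of all regions and 0.126% of those 34220 showed. The looser rule of at least 2 of 3 estradiol and no vehicle libraries was met by 6 regions (20.0%, against 3.55% of those 34220), at Greb1, Pgr and Nrip1, and its reverse by 0 (against 2.73% of those 34220). With shares this low, 0 of 30 regions in the vehicle direction says little under either rule. No region was held by all 6 libraries (8.21% of those 34220), and 3 (10.0%, against 14.6% of those 34220 in at least 5 libraries) were held by 5, at Xbp1 and Ctsd. A further 17 (56.7%, against 56.3% of those 34220) were found in 1 library. The genes were chosen with earlier results of these data known, so these shares are a description and were not tested.

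**Figure D1:**
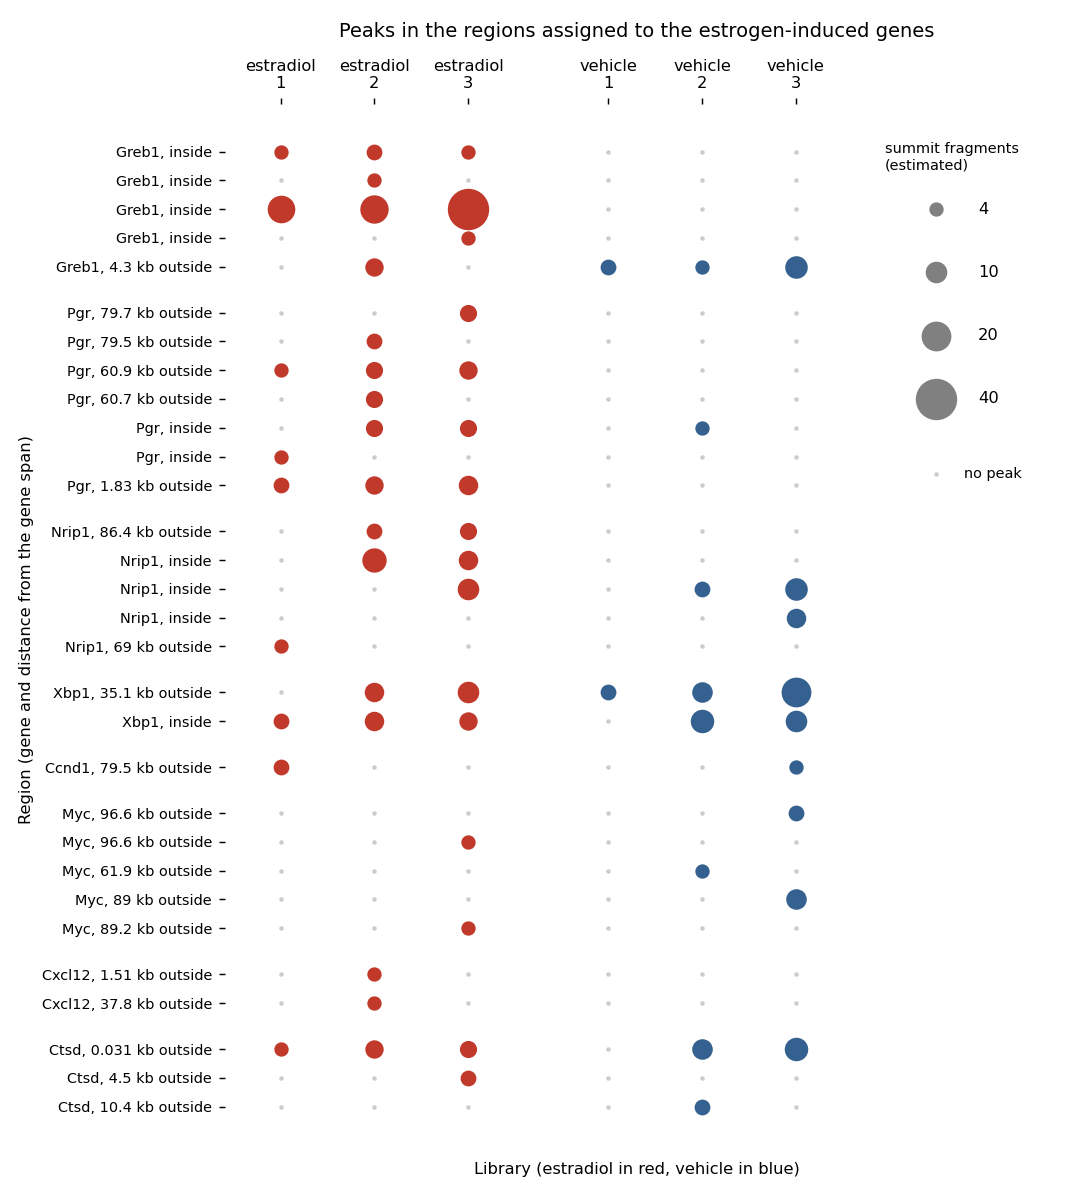
Each row is 1 of the 30 regions, labelled with its gene and the distance from the gene span, and each column is a library, estradiol on the left and vehicle on the right; dot area is proportional to the estimated fragments at the summit and a grey point marks no peak. The Greb1 row with 17, 18 and 40 fragments in the 3 estradiol libraries has no vehicle peak, and an Xbp1 row holds a vehicle replicate 3 peak of 20 fragments.

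Greb1 encodes a coregulator of the estrogen receptor, known from human breast cancer cells. It lies on the minus strand of chromosome 12 (mm10, 16670615 to 16801394, 131 kb). Of its 5 regions, 2, 4 and 3 held a peak in estradiol replicates 1, 2 and 3, against 1, 1 and 1 in vehicle replicates 1, 2 and 3. These counts did not overlap, with every estradiol library above every vehicle library. The means were 3.0 ± 1.0 with estradiol (SD, n = 3) and 1.0 with vehicle, and the two-sided exact permutation p was 0.1, the smallest that 3 libraries against 3 can give. A difference at least this large was found at 0.914% of the 13464 genes with a region. The counts overlapped when peaks needed a −log10 q of at least 3 (1, 3 and 1 with estradiol, 0, 0 and 1 with vehicle).

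The strong Greb1 region, at chr12:16760333-16760598, lay inside the gene. Its summits in the 3 estradiol libraries fell within 44 bp of each other. Its peaks stood at the 94.9, 94.2 and 98.7 percentile of −log10 q in estradiol replicates 1, 2 and 3, while no vehicle list held a peak there. Ordered by the lowest −log10 q over the estradiol libraries (16.5), it ranked 7 of the 290 estradiol-only regions of the whole series, whose median was 3.38. RefSeq lists a pair of starts for Greb1. The centre of the region lay 40.4 kb beyond the first start along the gene and -3.23 kb from the second one, so it was just upstream of the internal start.

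The other 3 Greb1 regions inside the gene held at most 5 fragments in any library. The second estradiol-only region, at chr12:16719075-16719120, had summits within 11 bp of each other but only 4, 5 and 4 fragments in estradiol replicates 1, 2 and 3, and ranked 247 of 290. Estradiol replicate 2 and estradiol replicate 3 each had a further peak inside the gene, with 4 fragments. A region 4.3 kb outside the span, upstream of the first start, was held by more vehicle than estradiol libraries. It held a peak of 7 fragments in estradiol replicate 2 alone of its group, against 5, 4 and 11 fragments in vehicle replicates 1, 2 and 3.

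No library had a peak in the 300 bases around either Greb1 start or around the Pgr start. These windows, from RefSeq (GRCm38.p6, the coordinates of mm10), run from 250 bases before to 50 after the start. The RefSeq span begins at -0.933 kb from the Pgr start and at -0.508 kb from the first Greb1 start, so the windows do not reach its 5′ end. The windows are shown 5′ to 3′ along the gene because they are the starts of the 2 genes with estradiol-only regions. Capitals mark single arms of the estrogen response element (GGTCA, or TGACC on the other strand).
Greb1, first start (chr12:16800837-16801136, minus strand): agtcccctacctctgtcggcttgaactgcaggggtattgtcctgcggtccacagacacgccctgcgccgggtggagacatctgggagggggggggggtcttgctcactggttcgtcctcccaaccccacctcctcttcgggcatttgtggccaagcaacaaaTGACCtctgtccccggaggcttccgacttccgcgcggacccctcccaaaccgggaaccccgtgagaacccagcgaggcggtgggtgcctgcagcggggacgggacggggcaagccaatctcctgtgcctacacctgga
Greb1, internal start (chr12:16757190-16757489, minus strand): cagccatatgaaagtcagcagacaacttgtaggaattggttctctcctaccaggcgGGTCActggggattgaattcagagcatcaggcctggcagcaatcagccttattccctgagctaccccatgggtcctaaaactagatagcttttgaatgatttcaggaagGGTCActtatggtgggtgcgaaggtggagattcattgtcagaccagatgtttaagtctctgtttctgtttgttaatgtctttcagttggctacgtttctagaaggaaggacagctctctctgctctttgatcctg
Pgr (chr9:8899583-8899882, plus strand): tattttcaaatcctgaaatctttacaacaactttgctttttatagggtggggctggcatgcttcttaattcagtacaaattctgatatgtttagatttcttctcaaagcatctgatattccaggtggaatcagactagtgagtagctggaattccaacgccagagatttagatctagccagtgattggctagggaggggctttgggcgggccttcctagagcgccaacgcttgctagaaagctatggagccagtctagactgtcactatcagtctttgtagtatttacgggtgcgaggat
The first Greb1 window held 1 arm, the internal one 2 and the Pgr window 0. At least 1 arm was found in 39.4% and at least 2 in 9.94% of the 21255 start windows of protein-coding genes.

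Pgr encodes the progesterone receptor, itself a hormone-bound transcription factor. It lies on the plus strand of chromosome 9 (8898900 to 8968611, 69.7 kb). Of its 7 regions, 3, 5 and 4 held a peak in estradiol replicates 1, 2 and 3, against 0, 1 and 0 in vehicle replicates 1, 2 and 3. The groups did not overlap. The means were 4.0 ± 1.0 with estradiol and 0.333 ± 0.577 with vehicle (SD, n = 3 each), with a two-sided exact permutation p of 0.1, again the smallest possible. A difference at least this large was found at 12 genes, Pgr included, which is 0.0891% of those with a region. Genes with few regions cannot reach such a difference. Neither this share nor that of Greb1 was adjusted for the number of regions or the stretch assigned to a gene. Merged within 500 bp, the Pgr counts were 3, 4 and 4 with estradiol and 0, 1 and 0 with vehicle, a difference of 3.33.

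More than 1 estradiol library had a peak in the 2 estradiol-only regions of Pgr and in a region inside the gene. The first estradiol-only region, at chr9:8970444-8970549, lay 1.83 kb beyond the end of the gene. Its summits fell within 11 bp, with 5, 7 and 8 fragments in estradiol replicates 1, 2 and 3 and no peak in any vehicle library. The other, at chr9:8837777-8838022, lay 60.9 kb upstream of the span. It had 4, 6 and 7 fragments in the estradiol libraries and none called in the vehicle libraries. Estradiol replicate 2 had another peak of 6 fragments 82 bp beyond it. By the lowest −log10 q over the estradiol libraries, these regions ranked 102 and 271 of the 290, so neither was near the top. With a −log10 q of at least 3, the region beyond the Pgr end and the strong Greb1 region remained estradiol-only, and the other 2 did not.

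Farther upstream, 79.5 and 79.7 kb from the gene, estradiol replicates 2 and 3 each had a peak, of 5 and 6 fragments. These peaks lay 133 bp apart and were therefore counted as separate regions. Inside the gene, the region at chr9:8937897-8938001 had 6 fragments in estradiol replicate 2 and 6 in estradiol replicate 3, against 4 in vehicle replicate 2. That was the only vehicle peak assigned to Pgr. A single peak of 4 fragments in estradiol replicate 1, near the end of the gene, made up the rest.

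**Figure D2:**
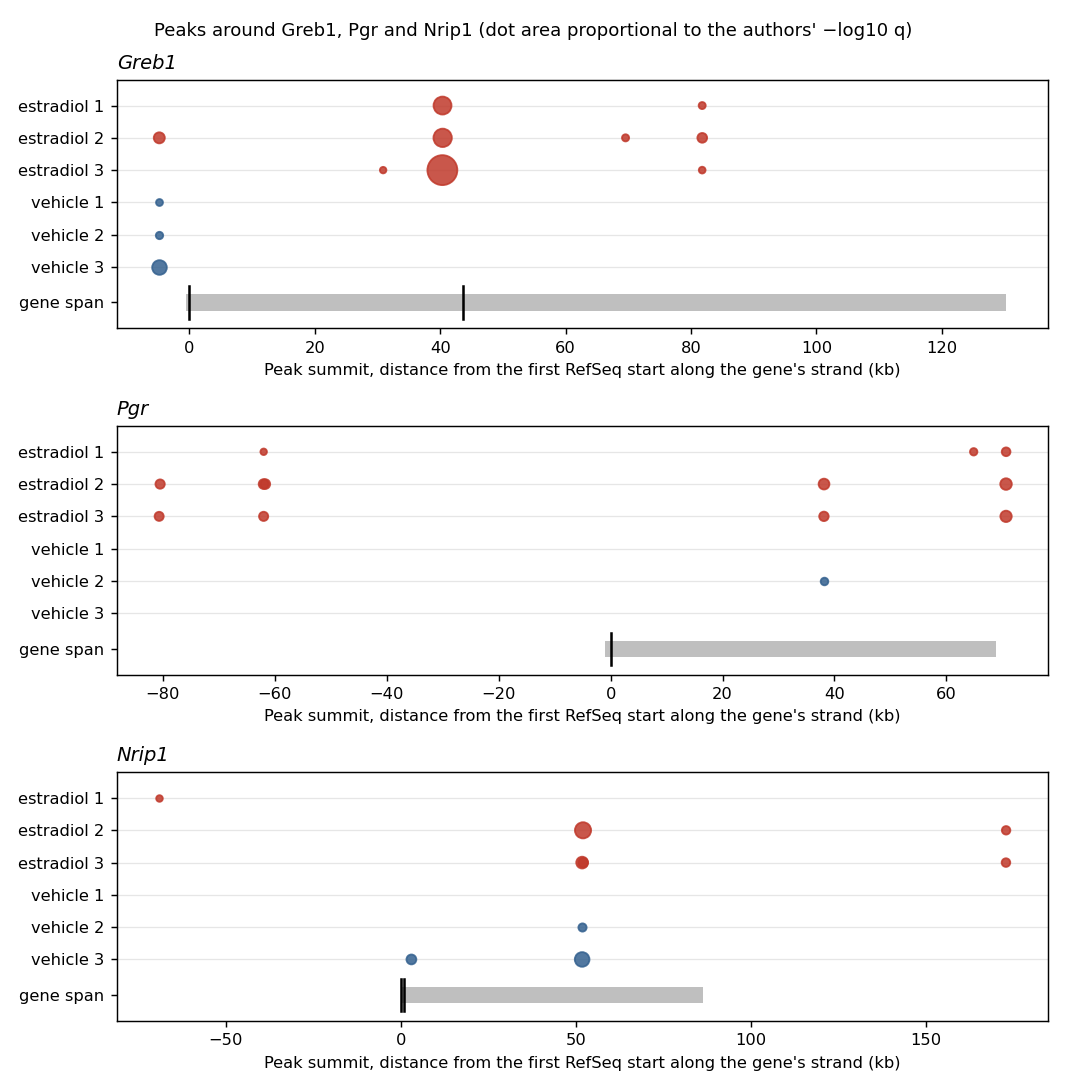
Peak summits along Greb1, Pgr and Nrip1, with the distance from the first RefSeq start on the x axis (kb, in the direction of transcription) and 1 line per library, estradiol above vehicle; dot area is proportional to −log10 q, the grey bar is the gene span and black ticks are starts. The strong Greb1 peaks of the 3 estradiol libraries stand just before the internal start, and Pgr has a single vehicle dot.

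Counts in all other genes of the list overlapped between the groups. Over the 13464 genes with a region, 0.988% had non-overlapping counts that were higher with estradiol and 0.305% lower, against 2 and 0 of these 10. At least 1 estradiol-only region was found at 2 of the 10, against 1.09% of all 21887 genes and 1.78% of those with a region. At least 2 were found at 8 genes, Greb1 and Pgr among them (0.0366% of all, 0.0594% of those with a region). A vehicle-only region was found at 0 of the 10 and at 0.201% of all genes. With shares this low, 0 of 10 genes in the vehicle direction says little. The two-sided exact permutation p was 1.0 for each of Xbp1, Ccnd1, Myc, Cxcl12 and Ctsd. No gene passed the exact permutation test after Benjamini-Hochberg adjustment (smallest adjusted p = 1.0), and 0 of 13464 had an unadjusted p under 0.05, since 0.1 is the least the design allows.

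**Figure D3:**
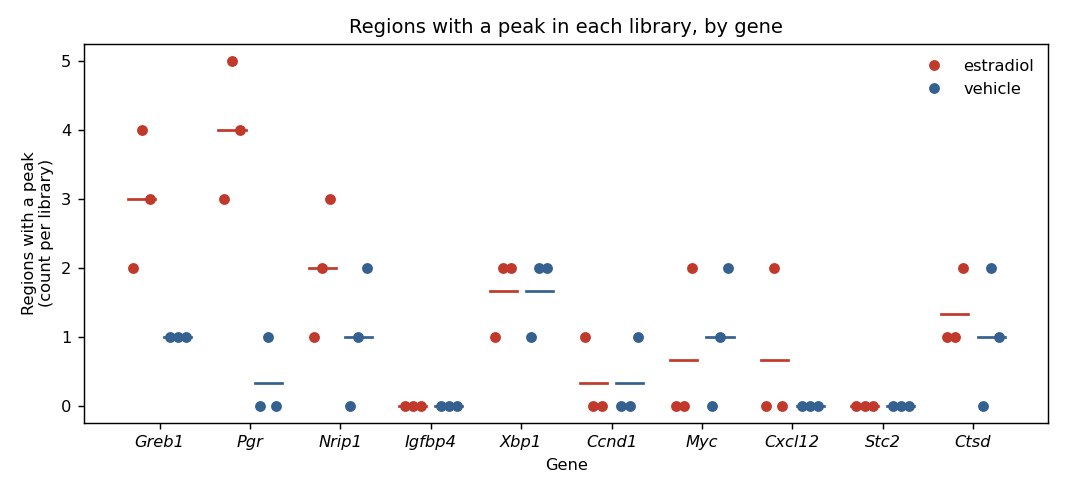
Number of regions with a peak in each library (y axis, count) for each of the 10 genes (x axis), estradiol in red on the left and vehicle in blue on the right of each gene; points are libraries and lines are means. The points of the groups are apart for Greb1 and Pgr, and overlap or coincide for the other 8.

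Nrip1 encodes a corepressor that nuclear receptors recruit in their hormone-bound form. It lies on the minus strand of chromosome 16 (76287403 to 76373827) and had 5 regions. A peak was found in 1, 2 and 3 of them in the estradiol libraries, against 0, 1 and 2 in the vehicle libraries (two-sided exact permutation p = 0.5). A pair of neighbouring regions inside the gene, 78 bp apart and centred 51.3 and 51.0 kb beyond the nearer start, held different libraries. The region at chr16:76321736-76321861 had 13 and 8 fragments in estradiol replicates 2 and 3 and no vehicle peak. The region at chr16:76321940-76322105 had 10 fragments in estradiol replicate 3, against 5 and 11 in vehicle replicates 2 and 3. Joined, as merging within 500 bp does, they hold both groups, and the pattern of estradiol peaks alone is lost there.

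A second Nrip1 region with peaks of estradiol replicates 2 and 3 (5 and 6 fragments) and of no vehicle library lay 86.4 kb from the span, beyond the end of the gene. The remaining regions were single calls. Estradiol replicate 1 had a peak of 4 fragments 69.0 kb upstream. Vehicle replicate 3 had a peak of 8 fragments inside the gene, 2.21 kb beyond the nearer start.

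Xbp1 and Ctsd held the 3 regions found in 5 libraries, 1 at each start and 1 far upstream of Xbp1. Xbp1 encodes a transcription factor of the unfolded protein response, and lies on chromosome 11 (5520641 to 5525993). Of its 2 regions, 1, 2 and 2 held a peak in the estradiol libraries, against 1, 2 and 2 in the vehicle libraries. The region at chr11:5520777-5521040 was centred 268 bp after the start. It had 5, 8 and 7 fragments in estradiol replicates 1, 2 and 3, against 12 and 10 in vehicle replicates 2 and 3 and no peak in vehicle replicate 1. The region 35.1 kb upstream of the gene had 8 and 10 fragments in estradiol replicates 2 and 3, against 5, 9 and 20 in vehicle replicates 1, 2 and 3. Both regions were held by 2 or more libraries of each group.

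Ctsd encodes cathepsin D, a lysosomal protease. It lies on the minus strand of chromosome 7 (142375910 to 142387827), and its promoter is known to respond to estrogen in human breast cancer cells. The region at chr7:142387858-142388107 covered 220 of the 300 bases around the Ctsd start. It had 4, 7 and 6 fragments in estradiol replicates 1, 2 and 3, against 9 and 12 in vehicle replicates 2 and 3 and no peak in vehicle replicate 1. Its summits were spread over 155 bp, and estradiol replicate 3 had 2 peaks in it. RefSeq gave 10 start windows for 8 of these genes, and the Ctsd window was the 1 that overlapped a region of theirs. Among all 21255 windows, 33.3% overlapped a region of at least 1 library. The Ctsd window is shown because a peak of both groups lies on it, with the arms in capitals as above.
Ctsd (chr7:142387778-142388077, minus strand): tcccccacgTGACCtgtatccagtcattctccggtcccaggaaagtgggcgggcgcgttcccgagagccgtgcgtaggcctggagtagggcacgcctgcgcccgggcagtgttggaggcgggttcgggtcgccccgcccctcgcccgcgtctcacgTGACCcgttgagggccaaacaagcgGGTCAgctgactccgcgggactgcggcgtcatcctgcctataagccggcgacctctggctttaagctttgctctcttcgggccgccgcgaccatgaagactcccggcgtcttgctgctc
It held 3 arms, at -241, -94 and -69 bases from the start, all inside the region. At least 3 were found in 1.91% of all windows. It also held 2 GC boxes (GGGCGG, or CCGCCC on the other strand), and at least 2 were found in 26.4% of all windows.

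**Figure D4:**
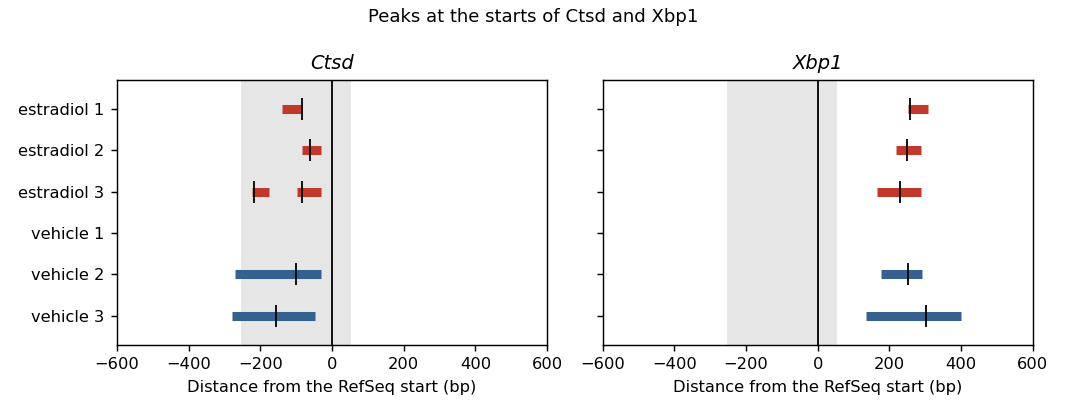
Peaks around the RefSeq starts of Ctsd and Xbp1, with the distance from the start on the x axis (bp, in the direction of transcription) and 1 line per library, estradiol above vehicle; bars are peaks, ticks their summits and grey the 300-base window. Peaks of all libraries but vehicle replicate 1 lie just before the Ctsd start and just after the Xbp1 start.

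No full estrogen response element (GGTCA, then 3 bases of any kind, then TGACC, which reads the same on both strands) was found in the 10 windows, and 0.0518% of all windows held it. With at most 1 mismatch among its 10 fixed letters the count was 0 of 10, against 0.828% of all. At least 1 arm was found in 5 of the 10 windows, GC boxes in 4 (46.2% of all) and an AP-1 motif (TGANTCA, both strands) in 0 (6.99% of all). Every full element holds a pair of arms, so these counts overlap. These letters describe the windows only. The sequences under the Greb1, Pgr and Nrip1 regions were not used here.

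The regions of the other genes held few fragments and few libraries. Myc encodes a growth-promoting transcription factor and had 5 regions, each found in 1 library and none nearer than 61.9 kb. Its counts were 0, 0 and 2 in estradiol libraries and 0, 1 and 2 in vehicle libraries. The most fragments in any of these regions, 9, were in vehicle replicate 3. Cxcl12, a chemokine gene, had 2 regions, both in estradiol replicate 2 alone with 4 fragments, and 1 of them lay 1.51 kb before the gene. Ccnd1, which encodes cyclin D1 of the cell cycle, had 1 region 79.5 kb away, with 5 fragments in estradiol replicate 1 and 4 in vehicle replicate 3. Ctsd had 2 more regions, of 5 fragments each, in estradiol replicate 3 and in vehicle replicate 2.

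Igfbp4, which encodes a binding protein of insulin-like growth factors, and Stc2, which encodes a secreted glycoprotein, had no region. The stretch in which a peak would be assigned differed between them. It was 27.1 kb for Igfbp4, which has close neighbours, and 211 kb for Stc2, which is isolated. By comparison it was 141 kb for Greb1 and 182 kb for Pgr. Within 100 kb of Igfbp4 lay 9 regions that were nearer to other genes, and 2 of them held peaks of all 6 libraries, 15.6 kb away at Top2a and 64.4 kb away at Rara. For the 10 genes together, 32 such regions were assigned elsewhere. Of these 0 were estradiol-only, 0 vehicle-only and 3 were held by all 6 libraries.

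Added over the 10 genes, peaks lay in 9, 16 and 16 regions in estradiol replicates 1, 2 and 3, against 2, 8 and 9 in vehicle replicates 1, 2 and 3. The means were 13.7 ± 4.04 with estradiol and 6.33 ± 3.79 with vehicle (SD, n = 3 each). Per 10000 regions of the library, the values were 8.21, 11.4 and 9.17 with estradiol and 3.74, 5.89 and 4.40 with vehicle, which did not overlap. The difference of the means was 7.5 regions within replicates 1 and 2 and 7.0 in replicate 3, with 1 library per group. Greb1 and Pgr made up most of it: without them the counts were 4, 7 and 9 with estradiol and 1, 6 and 8 with vehicle. Per 10000 regions, the values without them were 3.65, 5.01 and 5.16 with estradiol and 1.87, 4.42 and 3.91 with vehicle, which overlapped. When each list was reduced to its 5421 peaks of highest −log10 q, the length of the shortest list, the counts were 1, 7 and 4 with estradiol and 2, 3 and 6 with vehicle. The difference of the means was then 0.333. At that length the strong Greb1 region remained estradiol-only, the other 3 regions did not, and neither Greb1 (1, 2 and 1 regions with estradiol, 1, 0 and 1 with vehicle) nor Pgr (0, 2 and 1 with estradiol, 0, 0 and 0 with vehicle) kept counts that did not overlap.

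**Figure D5:**
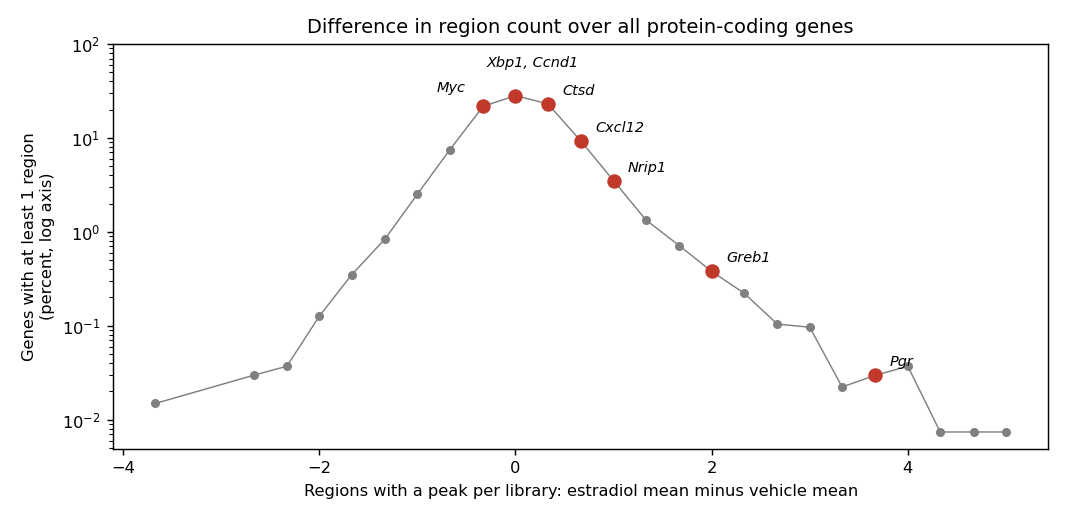
Share of the 13464 genes with a region (y axis, percent, log axis) at each difference of the mean number of regions with a peak, estradiol minus vehicle (x axis); grey points are all genes and red points mark the genes of the list. Pgr (3.67) and Greb1 (2.0) lie in the right tail, and the other 6 named genes between -0.333 and 1.0.

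Other genes of the estrogen response were looked at in the same way. Of 20 further genes known to be induced or bound by the receptor in breast or uterus, among them Tff1, Rara, Igf1 and Wnt4, 14 had a region. None of the 20 had an estradiol-only or vehicle-only region, against 1.09% and 0.201% of all 21887 genes. None had non-overlapping counts, against 0.988% (higher) and 0.305% (lower) of the 13464 genes with a region. With shares this low, 0 of 20 genes says little. The difference was above 0 for 5 and below 0 for 7, against 5218 and 4455 of all 21887 genes. Of 10 genes known for a response to estrogen in rodent brain, such as Oxtr and Prlr, 8 had a region. In that list 1 gene, Trh, which encodes thyrotropin-releasing hormone, had an estradiol-only region, against the same 1.09% of all genes. Its total counts were 1, 1 and 1 in estradiol libraries and 0, 1 and 0 in vehicle libraries. The median difference was 0.167 for the 10 genes of the main list, 0 for both other lists and 0 over all protein-coding genes.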

How the data were processed

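The files are CUT&RUN peak lists for estrogen receptor alpha, 1 per library. Per the submitters' processing notes the authors used cutadapt, Bowtie2, Picard, SAMtools, deepTools and MACS2 on mm10; versions, roles and any control library are not given in the sources used here. For every peak the deposited lists hold an integer score, the fold enrichment at its summit, the −log10 of a p-value and of a q-value, and the summit as an offset in bp. Each list stems from 1 library and a q-value of 0.01, per the peak names in the deposited files.

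Python 3.11.15 with pandas 2.3.3, numpy 2.4.6 and scipy 1.17.1 was used. Summit fragments are estimates: assuming a Poisson upper tail and a fold with pseudocount 1, a whole number matched the deposited −log10 p within 0.0002 for 100.0% of peaks. Total read depth is not in these files. Peaks of the 6 lists that overlapped or touched (1 bp) were merged. Regions were assigned to the nearest protein-coding span of a RefSeq table (GRCm38.p6), within 100 kb; starts and strand came from a RefSeq promoter table, which held 8 of the 10 genes (not Ccnd1 and Myc). Region counts per library entered an exact permutation test (two-sided) per gene, with Benjamini-Hochberg adjustment over 13464 genes. Merging, assignment, fragment estimates and tests were tested on simulated data. Alternatives changed the overlap, the −log10 q minimum, the list length, the window, the assignment and the libraries used.

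The members and lists were chosen with earlier results of these data known. All 10 genes are described; regions described singly were those of 1 group only, those in most libraries, and those at gene ends. Genes of the other 2 lists were named with values where they had an estradiol-only or vehicle-only region or counts that did not overlap.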

Additional observations from a re-analysis of the deposited data

How the results depend on the processing

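At Greb1 and Pgr the estradiol mean was the higher in each of 16 alternatives with a value, by 0.667 to 3.0 regions at Greb1 and by 1.0 to 4.17 at Pgr. There were 2 estradiol-only regions at −log10 q of at least 3, at Greb1 and Pgr. There were 2 (at 1 gene, Greb1) when a peak had to cover 50% of a region, and 1 (at 1 gene, Greb1) with lists of equal length. Pgr thus had no estradiol-only region with 50% cover or with lists of equal length. Replicate 3 alone, with 1 library per group, gave 12 estradiol-only regions at 5 genes and 5 vehicle-only regions at 4 genes, with 4 genes higher and 1 lower. In that setting each region called in a single library counts for its group, so these counts are not comparable to those of the main rule. When 2 of 3 libraries sufficed, 6 regions at 3 genes had estradiol peaks alone. Genes with higher counts that did not overlap were 1 at −log10 q of at least 3 (Pgr), 1 when regions nearer to other genes were included (Pgr) and 0 with lists of equal length. Shares over all regions and genes were computed for the main rule, and over regions for the rule of 2 of 3 libraries. For the other alternatives they were not computed, so those counts cannot be set against a background. Over the left-out libraries there were 4 to 6 estradiol-only regions at 2 to 3 genes and 0 to 1 vehicle-only regions at 0 to 1 gene, the 1 being the upstream Greb1 region without estradiol replicate 2. The summed difference was 5.17 to 9.67 over the left-out libraries, 0.333 with lists of equal length, 4.67 within 50 kb, 1.67 without Greb1 and Pgr and 4.92 per 10000 regions, the last 2 settings chosen after seeing the data.

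The differences of Ctsd and Myc changed sign in some alternatives, while those of Nrip1 and Cxcl12 were below 0 in 0 of 16. The difference of Ctsd was -0.667 with 50% cover, -0.333 at −log10 q of at least 3, -0.667 with lists of equal length, -0.667 with regions nearer to other genes included and -0.167 without vehicle replicate 1, and that of Myc was 0.167 without vehicle replicate 3. Over the left-out libraries the range was -0.167 to 0.833 for Ctsd and -1.0 to 0.167 for Myc. For these changes the cause was not tested.

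Treating same-numbered libraries as a replicate block, a region counted for a group when it held that group's peak alone in at least 2 of the 3 pairs and the other group's alone in 0. This gave 6 regions at 3 genes for estradiol and 1 region at 1 gene for vehicle. The shares over all regions and genes under this rule were not computed. Counts were higher with estradiol in every pair at 3 genes, Greb1, Pgr and Nrip1 (paired exact permutation p = 0.25, the smallest possible). The deviations of libraries with the same number had correlations of -0.0293, 0.0213 and -0.0148. Those of libraries with different numbers ran from -0.0192 to 0.0404. All are small, so they cannot tell if the same number marks a pair or a shared batch. Most peaks rest on few fragments, which limits what the lack of a peak can show.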
